A study of Mus musculus with 8 samples.

Results

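The genes described here encode 4 families of core splicing proteins in mouse germ cells: the SR proteins (Srsf genes), the hnRNP proteins (Hnrnp genes), the SF3A and SF3B subunits (Sf3a and Sf3b genes) and the snRNP proteins (Snrp genes). They were found by symbol, without use of their values, and Snrpn was left out. Of 20153 gene identifiers in the expression table, 50 matched: 11 SR, 20 hnRNP, 8 SF3 and 11 snRNP genes. All 50 identifiers were found in GENCODE M21 (GRCm38) under the same symbol, on 18 chromosomes.

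Splicing removes introns from pre-mRNA. The snRNPs, particles of a small nuclear RNA and proteins, recognise the splice sites: U1 binds the donor site and U2 the branch site, where SF3A and SF3B hold U2 in place. Most snRNPs carry a ring of Sm proteins, which Snrpb, Snrpd1, Snrpd2, Snrpd3, Snrpe, Snrpf and Snrpg encode. SR proteins bind exons and mostly promote their inclusion, and hnRNP proteins coat nascent RNA and often repress nearby splice sites. Many SR and hnRNP genes limit their own level by splicing their RNA into forms that nonsense-mediated decay removes.

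RNA was measured in 4 groups of 2 libraries. Primordial germ cells (PGCs), from which eggs and sperm develop, were taken at E9.5 from Oct4gfpXCD1 embryos (passage 0, about 250 cells a library). Embryonic germ cells (EGCs), pluripotent lines that PGCs give rise to in culture, were lines 4 and 7 from sorted E9.5 PGCs of that strain (passage 6, 500 cells, serum and LIF on fibroblast feeders). The iPGCs were made from BVSC embryonic stem cells in hanging drops (passage 21, 1500 cells). PGC-like cells (PGCLCs) came from stem cells of that strain and passage, first turned into epiblast-like cells and then grown as aggregates, with 300 to 500 cells a library. No treatment apart from culture is listed for any group. Strain, origin, culture, passage and cell number change with the groups, so their parts in a difference cannot be told apart. Each EGC library is 1 line, and p-values measure the spread between libraries called biological replicates.

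Values are FPKM, a level per transcript length and library size (fragments per kilobase per unit of mapped fragments). Approximate depths read from the smallest steps between values were 2.40 M reads in iPGC library 1, 6.58 M in PGCLC library 1 and 12.1 to 15.5 M in the others. A single read on 1 kb was thus worth 0.416 FPKM in iPGC library 1 and 0.0644 to 0.152 in the others. PGC library 1 stood apart in markers of other embryonic cells. Its 7 macrophage and blood markers summed to 143 FPKM (6 at 1 FPKM or more, Tyrobp at 0) against 5.74 in PGC library 2 and 3.21 to 16.3 in the other groups. Its 5 yolk sac and endoderm markers summed to 137 FPKM (3 at 1 or more, Sox17 and Foxa2 at 0) against 0.742 in PGC library 2 and at most 2.52 elsewhere. PGC markers summed to 417 to 885 FPKM in PGC, iPGC and PGCLC libraries and to 61.3 and 124 in EGCs. The part of these cells in the results was not tested. The differences of named genes from PGCs and the medians relative to all genes are also given without PGC library 1. A fit with 1 library left out has a group of 1 library, so only its effect sizes are given. These are bulk libraries, so fewer cells of a type and less RNA per cell cannot be told apart.

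The upstream sequences of Srsf5, Hnrnpa1, Srsf2, Srsf6 and Hnrnpul1 are shown because these genes had both PGC libraries on 1 side of the other 6, and their windows lie outside the GENCODE gene. They are RefSeq sequences (GRCm38.p6), 5′ to 3′ on the gene's strand and ending at the base before the RefSeq start. Each has 250 bases, except that of Srsf2, which has 200 because its far end is exon of the divergent gene Mfsd11. Capitals mark matches on either strand to the GC box GGGCGG, the ETS motif CCGGAAG, the CCAAT box CCAAT or the TATA box TATAAA. The YY1 motif ATGGCGG was searched as well and has no match in them. GC box matches overlap each other in Srsf2, and a GC box and an ETS match overlap in Srsf5.
Srsf5, chr12:80945249-80945498, plus strand: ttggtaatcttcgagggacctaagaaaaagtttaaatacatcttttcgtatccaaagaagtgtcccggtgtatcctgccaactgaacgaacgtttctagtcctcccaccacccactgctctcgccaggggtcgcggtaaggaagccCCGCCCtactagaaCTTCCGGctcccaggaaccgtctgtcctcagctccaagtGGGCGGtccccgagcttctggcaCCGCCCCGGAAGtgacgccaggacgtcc
Hnrnpa1, chr15:103240147-103240396, plus strand: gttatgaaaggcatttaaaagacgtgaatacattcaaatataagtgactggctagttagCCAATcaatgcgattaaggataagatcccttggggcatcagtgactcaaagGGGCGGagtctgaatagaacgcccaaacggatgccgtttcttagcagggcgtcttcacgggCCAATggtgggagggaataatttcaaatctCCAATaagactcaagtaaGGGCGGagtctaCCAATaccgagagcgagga
Srsf2, chr11:116853095-116853294, minus strand: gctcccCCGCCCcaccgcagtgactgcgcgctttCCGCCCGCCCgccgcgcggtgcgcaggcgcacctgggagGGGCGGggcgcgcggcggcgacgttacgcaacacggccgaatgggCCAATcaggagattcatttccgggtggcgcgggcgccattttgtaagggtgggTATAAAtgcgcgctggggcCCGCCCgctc
Srsf6, chr2:162931258-162931507, plus strand: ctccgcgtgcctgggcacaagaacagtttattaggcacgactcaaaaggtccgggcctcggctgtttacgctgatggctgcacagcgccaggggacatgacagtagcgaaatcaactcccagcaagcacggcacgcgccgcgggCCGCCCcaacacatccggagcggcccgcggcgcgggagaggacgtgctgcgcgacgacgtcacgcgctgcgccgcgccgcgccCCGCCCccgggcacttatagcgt
Hnrnpul1, chr7:25754760-25755009, minus strand: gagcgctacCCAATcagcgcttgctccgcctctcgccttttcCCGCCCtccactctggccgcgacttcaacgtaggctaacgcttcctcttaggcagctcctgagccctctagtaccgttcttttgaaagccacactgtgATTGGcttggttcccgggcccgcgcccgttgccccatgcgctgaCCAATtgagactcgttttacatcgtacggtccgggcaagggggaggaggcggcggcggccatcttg
Of the 5 genes, Srsf5 and Hnrnpa1 had PGC libraries below the others. Srsf5 had 3 GC boxes and 2 ETS matches, and Hnrnpa1 had 2 GC boxes, 4 CCAAT boxes and no ETS match. Srsf2, Srsf6 and Hnrnpul1, whose PGC libraries lay above the others, had no ETS match. They had 5, 2 and 1 GC boxes, and Srsf2 and Hnrnpul1 had 1 and 3 CCAAT boxes. Hnrnpf and Snrpd2 also had PGC libraries below the others but are not shown. The ETS motif was in some RefSeq windows of Hnrnpf and not in that of Snrpd2. The genes were picked by their values, and a link of motif to direction was not tested. Srsf2 was the only one of the 5 with a TATA box. An exon of the noncoding gene Gm20337 on the opposite strand covers the first part of the Srsf5 window.

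RefSeq windows of 250 bases were found for 44 of the 50 genes (58 windows, since some genes have several starts). The ETS motif was in 18 of these (31.0%), against 13.9% of 11316 windows of tested genes and 6.91% of all 32851 windows. The YY1 motif was in 8 (13.8%), against 3.79% and 2.21%. A GC box was in 70.7%, against 59.3% and 32.7%, and a CCAAT box in 44.8%, against 35.6% and 33.9%. A TATA box was in 5 windows (8.62%), against 6.24% and 12.4%. Splicing factor windows thus held each motif more often than those of tested genes, most of all the ETS and YY1 motifs, as a count with no test. For the TATA box this rests on 5 windows and lies below the share of all windows. Windows of 1 gene can overlap and repeat a match, as for ETS in Srsf4 and Sf3b2 and for YY1 in Hnrnpa2b1. The tested genes were not matched for level. The median GC content of splicing factor windows was 61.2%, against 60% for tested genes.

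**Figure D1:**
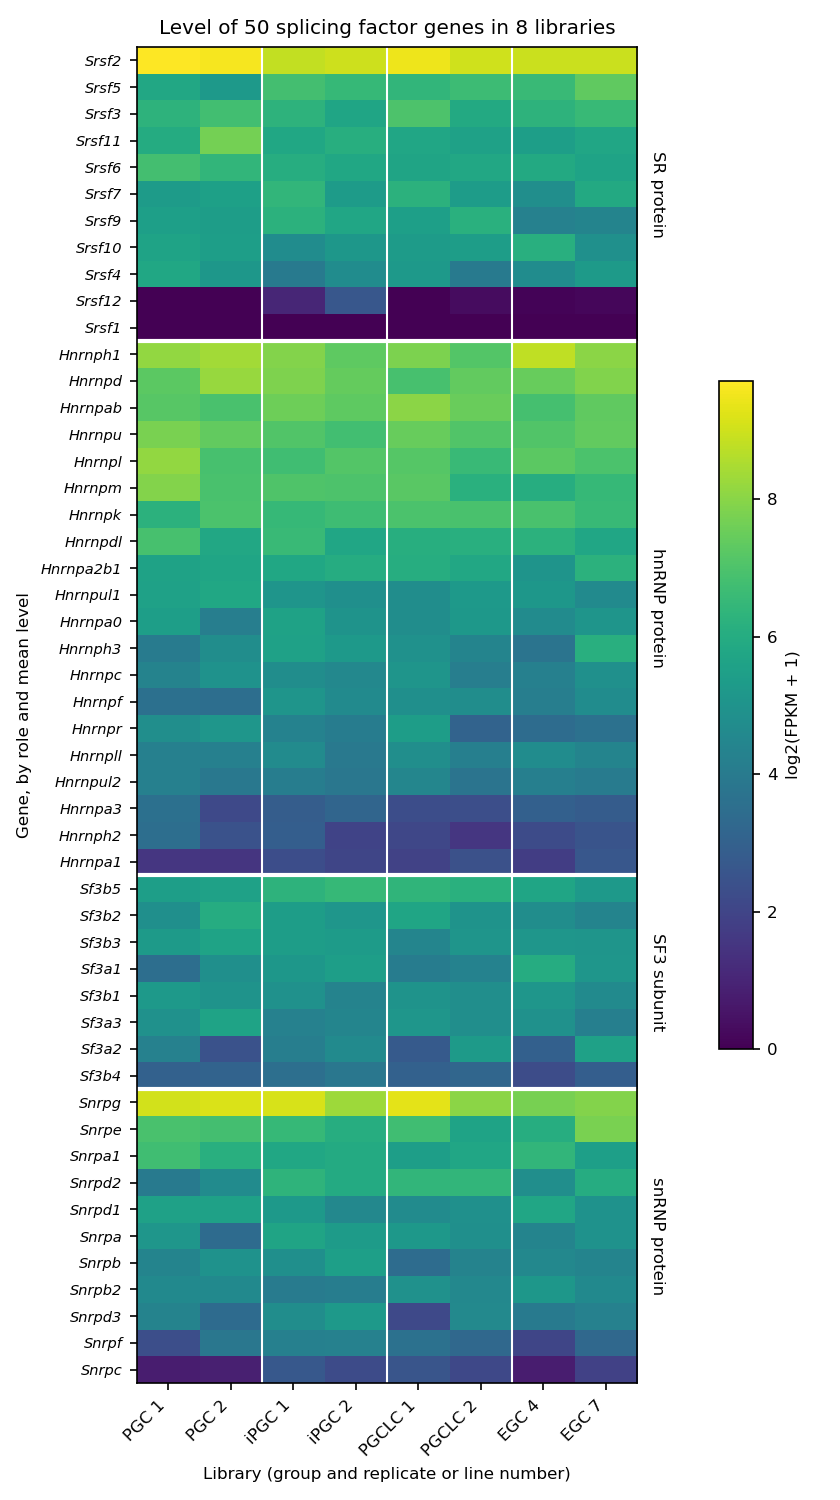
Level of the 50 splicing factor genes as log2(FPKM + 1), colour scale, in the 8 libraries (columns), by family and mean level (rows). Srsf2 and Snrpg are bright in every column, and Srsf1 is at 0 in every column.

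Nearly all of the genes were expressed in all 4 groups. At 1 FPKM or more in every library were 47 of 50, and 37 were at 10 or more. The median of their mean levels was 35.7 FPKM, against 6.57 over the 11083 tested genes, those that reached 1 FPKM in at least 2 libraries. Only Srsf1, for the founding SR protein, failed that filter: it is listed at 0 in all 8 libraries, and since nearly every cell uses it, the 0 may be a failed estimate. Srsf12, a low-level gene of the SR family, passed only through iPGCs, so its difference had to be upward there.

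Among SR genes Srsf2, which encodes the exon-binding protein SC35, had the highest level of all 50. It was at 845 and 781 FPKM in PGCs, 494 and 487 in EGCs, 453 and 507 in iPGCs and 711 and 519 in PGCLCs. Both PGC libraries thus lay above the other 6. On the opposite strand Mettl23 and Mfsd11 cover 25.3% of its exonic bases, and whether strand was used in counting is not given in the sources used here. The other tested SR genes had means from 30.8 FPKM (Srsf4) to 92.2 (Srsf5), apart from Srsf12. Srsf12 had a listed 0 in PGCLC library 1 and both PGC libraries. It was at 1.07 and 5.31 FPKM in iPGCs, 0.267 in PGCLC library 2 and 0.0632 and 0.114 in EGCs. In iPGC library 1, where 1 read on 1 kb was worth 0.416 FPKM, its value rests on few reads.

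Among hnRNP genes Hnrnph1, whose protein binds G-rich RNA, was at 286 and 333 FPKM in PGCs, 444 and 261 in EGCs, 242 and 159 in iPGCs and 225 and 139 in PGCLCs. All PGC and EGC libraries lay above all iPGC and PGCLC libraries. Hnrnpd, which encodes the AU-rich element binding protein AUF1, was at 155 and 298 in PGCs, 176 and 237 in EGCs, 229 and 170 in iPGCs and 117 and 166 in PGCLCs. Its groups overlapped, apart from both PGCLC libraries lying below both iPGC and both EGC libraries. Hnrnpab, an RNA-binding protein of the same type, was at 145 and 121 in PGCs, 116 and 162 in EGCs, 192 and 156 in iPGCs and 259 and 179 in PGCLCs. Its PGC libraries lay below the iPGC and PGCLC libraries and within the EGC range. The opposite-strand gene Phykpl covers 29.1% of the exonic bases of Hnrnpab. Hnrnpa1, which encodes a general splicing repressor, was at 1.90 and 1.85 FPKM in PGCs, 2.40 and 5.19 in EGCs, 3.95 and 3.10 in iPGCs and 2.75 and 4.31 in PGCLCs. Both PGC libraries lay below the other 6, at a mean over all libraries of 3.18 FPKM. The gene shares near-identical sequence with 18 pseudogenes, and Hnrnpa3 (mean 6.21) with 38.

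Levels of the SF3 genes were closer together, from a mean of 8.09 FPKM in Sf3b4 to 62.5 in Sf3b5. Sf3b1, the large subunit that contacts the branch site, was at 36.5 and 31.0 FPKM in PGCs, 33.6 and 24.0 in EGCs, 29.1 and 19.4 in iPGCs and 31.0 and 26.8 in PGCLCs. Its highest library was only 1.89 times its lowest. Sf3a2 varied most within groups, at 18.2 and 4.50 in PGCs, 5.78 and 38.2 in PGCLCs and 6.85 and 46.9 in EGCs. In iPGCs it was at 16.7 and 24.3 FPKM. In each of the PGC, PGCLC and EGC pairs it was the gene that differed most among the 49. Plekhj1, on the opposite strand, covers 16.1% of the exonic bases of Sf3a2.

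Means of the snRNP genes ran from 2.77 FPKM in Snrpc to 417 in Snrpg. Snrpg, for the ring protein SmG, was at 527 and 569 FPKM in PGCs, 212 and 244 in EGCs, 562 and 318 in iPGCs and 641 and 260 in PGCLCs. Both EGC libraries lay below the other 6. Snrpe, for SmE, had a mean of 104 FPKM, whereas Snrpf, for SmF, had 10.7. Opposite-strand genes cover 85.4% of the exonic bases of Snrpf. Snrpc, for a U1-specific zinc finger protein, has 8 near-identical pseudogenes.

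In all, 112 pseudogenes matched 26 of the 50 genes (at least 90% identity over at least 200 bases). The 4 genes with the most matches, Hnrnpa3, Hnrnpa1, Snrpc and Hnrnpf (7), had means from 2.77 to 22.0 FPKM, and all 4 levels are uncertain where reads were divided or dropped. Genes with 1 to 6 matches had a median of 46.2 FPKM and the 24 without one 34.2. Exonic bases were shared with another gene in 22 of the 50, over 10% of them in 8. A transcript annotated for nonsense-mediated decay was present in 24 of the 50 (48%), against 30.0% of 10871 tested protein-coding genes. By family it was 9 of 11 SR genes, 10 of 20 hnRNP, 4 of 11 snRNP and 1 of 8 SF3 genes. The table does not separate such transcripts from productive ones.

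**Figure D2:**
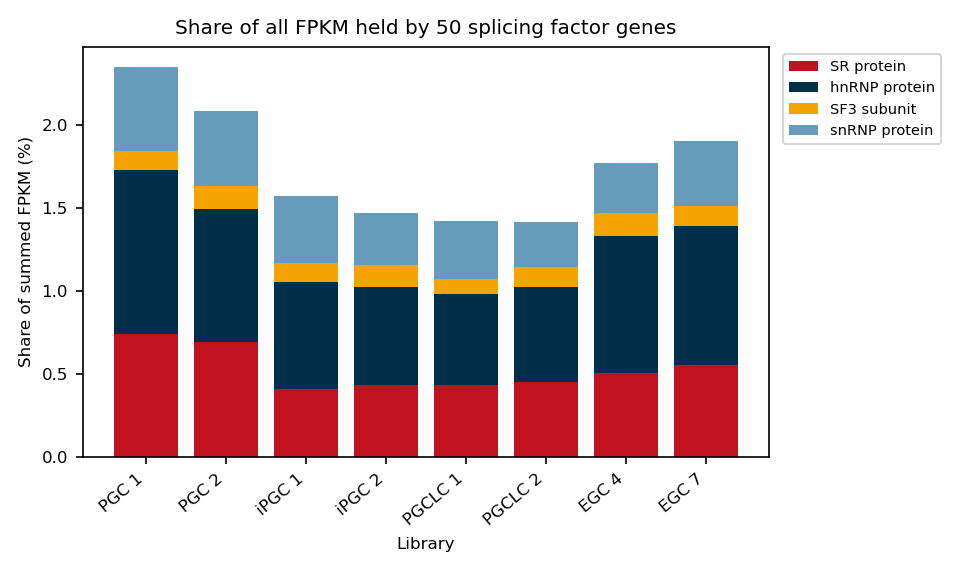
Share of the summed FPKM of each library (percent, y axis) held by the 50 genes, stacked by family, in the 8 libraries (x axis). Both PGC bars, 2.35% and 2.09%, are above the other 6, which run from 1.41% to 1.90%.

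Together the 50 genes held 2.35% and 2.09% of the summed FPKM in PGCs, 1.77% and 1.90% in EGCs, 1.57% and 1.47% in iPGCs and 1.42% and 1.41% in PGCLCs. The groups did not overlap in this share, with PGCs highest and PGCLCs lowest. Srsf2 and Snrpg weighed much in it: without them PGCs held 1.59% and 1.41% and EGCs 1.38% and 1.50%, which overlapped, and iPGCs and PGCLCs 0.943% to 1.15%. SR genes summed to 1339 and 1378 FPKM in PGCs and 910 to 1222 elsewhere. Without Srsf2 they summed to 494 and 597 in PGCs and 416 to 511 elsewhere, and the groups overlapped. Since the members were picked by name and the share depends on all other genes, no test was made.

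Replicates of these genes were no further apart at the median than those of genes with a mean of 10 FPKM or more, which were not matched for level. The median absolute log2 difference between the 2 libraries of a group was 0.42 for the PGC, 0.33 for the iPGC, 0.45 for the PGCLC and 0.48 for the EGC pair. In genes with a mean of 10 FPKM or more it was 0.84, 0.38, 0.62 and 0.57. The order of levels among the 49 genes was similar in all libraries, with Spearman's rho from 0.83 to 0.94 within groups and 0.78 to 0.93 between them. These correlations are across genes, which are not independent replicates, and share each library's depth and each gene's length.

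No splicing factor gene passed the test in any comparison. Differences below are in log2(FPKM + 1) ± SE, from limma over all 8 libraries with Benjamini-Hochberg adjustment over 11083 genes in each comparison and a threshold of 0.05, n = 2 against 2. Their SEs ran from 0.30 to 1.09 with a median of 0.49, and the smallest difference called in any gene was 2.44, 2.52 and 2.45 in EGCs, iPGCs and PGCLCs against PGCs. It was 3.78 and 3.76 in EGCs against iPGCs and PGCLCs, and 6.60 in PGCLCs against iPGCs. An uncalled difference is therefore not shown to be absent. Per comparison, 32 to 40 of the 49 had a 95% interval inside ±2, against 40.9% to 58.4% of genes with a mean of 10 FPKM or more. These intervals are not adjusted for the number of genes. In the moderated F test for any difference among the 4 groups 0 of 49 passed, against a background of 0.505% of all tested genes. At an unadjusted p below 0.05 there were 4 of 49 (background 19.2%): Snrpd2, Srsf9, Srsf12 and Srsf5, with adjusted p from 0.167 to 0.244. Srsf12 passed the filter only through iPGCs, so its place in this and in later counts with iPGCs is no support for a difference.

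**Figure D3:**
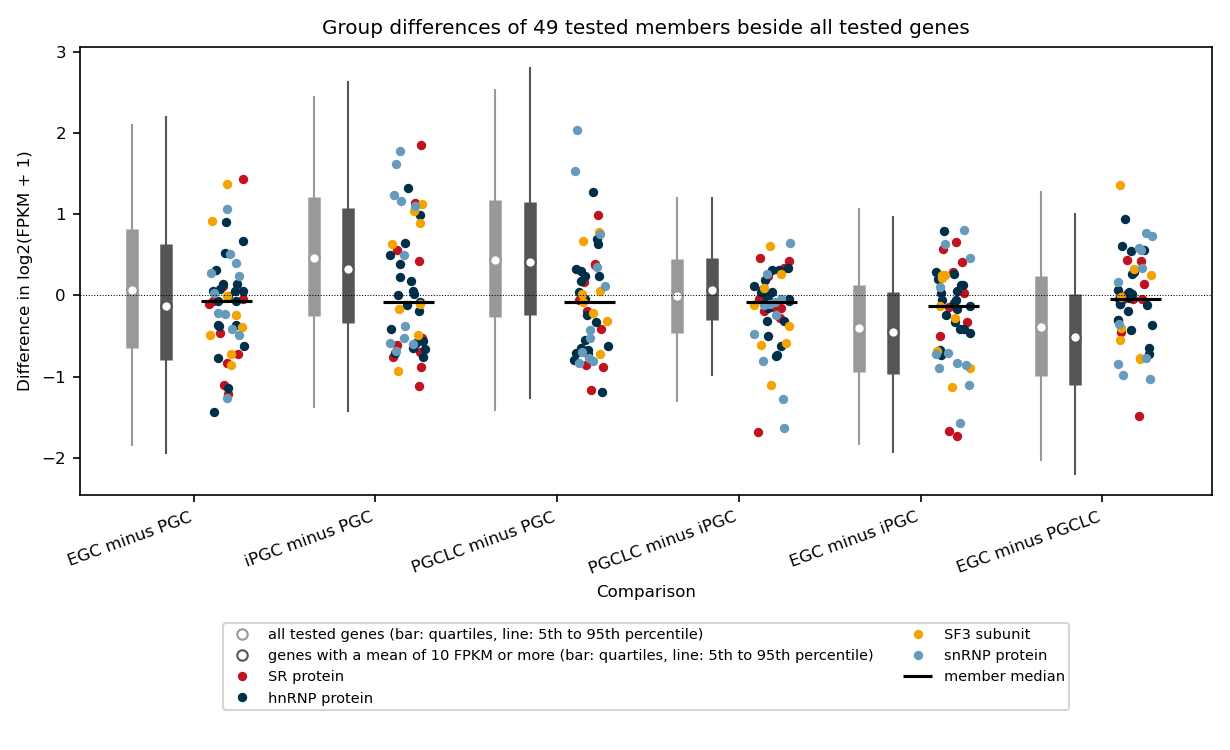
Difference in log2(FPKM + 1) (y axis) of the 49 tested genes (coloured points by family, black line their median) in 6 comparisons (x axis), beside the medians (circles), quartiles (bars) and 5th to 95th percentiles (lines) of all tested genes and of genes with a mean of 10 FPKM or more. The black line is near 0 in every comparison, from -0.13 to -0.04, while the medians of all genes run from -0.40 to 0.47.

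The median splicing factor gene had nearly the same FPKM in PGCs and in the other groups. The median of all genes was as near in EGCs but higher in iPGCs and PGCLCs than in PGCs. Their median difference was -0.07 in EGCs against PGCs, -0.08 in iPGCs and -0.08 in PGCLCs, whereas the median of all tested genes was 0.07, 0.47 and 0.44. Relative to all genes they were thus at -0.14, -0.54 and -0.51, and at -0.15, -0.41 and -0.51 without PGC library 1. Relative to the 4209 genes with a mean of 10 FPKM or more they were at 0.06, -0.40 and -0.48, so that the first changed sign with the genes it was set against. Below the median of all genes lay 33, 32 and 40 of the 49. Their median absolute difference was 0.39, 0.61 and 0.55, against 0.73, 0.74 and 0.73 in genes at 10 FPKM or more. These 3 comparisons share the PGC libraries. Fewer genes were at 1 FPKM or more in PGCs (8259 and 7991) than in iPGCs (9836 and 10039), PGCLCs (9157 and 9722) and EGCs (8677 and 9280). The part of this in the medians of all genes was not tested.

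EGCs were compared with PGCs, the cells such lines are derived from. Of 49 genes 0 passed (background 0.74%), and 6 had an unadjusted p below 0.05 (background 17.2%). Srsf5 and Sf3a1 were the 2 higher in EGCs (background 9.6%), and Srsf9, Srsf2, Snrpg and Hnrnpm the 4 lower (background 7.6%). Srsf5, an SR protein gene that responds to growth signals, was at 55.3 and 37.6 FPKM in PGCs and 95.8 and 162 in EGCs. Both EGC libraries were higher, by 1.43 ± 0.42 (adjusted p = 0.149) and by 1.70 without PGC library 1. Sf3a1, the largest SF3A subunit, was at 10.4 and 27.9 in PGCs and 63.5 and 33.6 in EGCs. The groups did not overlap, but the difference of 1.38 ± 0.57 (adjusted p = 0.268) was 0.71 without PGC library 1. Snrpd2, for the ring protein SmD2, was at 15.1 and 25.1 in PGCs and 27.2 and 64.3 in EGCs. Its EGC line 4 lay just above PGC library 2, with a difference of 1.06 ± 0.51 (0.72 without PGC library 1). It rested on the EGC line, being 0.46 without line 7 and 1.67 without line 4.

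Hnrnpr, an hnRNP gene whose protein also acts in RNA transport, was at 26.9 and 33.7 FPKM in PGCs and 9.77 and 11.3 in EGCs. Both EGC libraries were lower, by -1.43 ± 0.71 (adjusted p = 0.352). Snrpg, given above, was lower in both EGC lines, by -1.26 ± 0.48 (adjusted p = 0.229). Without PGC library 1 the 2 differences were -1.59 and -1.32. Srsf11, an SR-related gene, was at 62.0 and 203 in PGCs and 42.7 and 53.6 in EGCs. Its difference of -1.22 ± 0.56 depended on the PGC library: it was -2.06 without PGC library 1 and -0.37 without PGC library 2. Without overlap, 8 genes (16.3%, background 24.1%) were higher and 13 (26.5%, background 20%) lower in EGCs.

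**Figure D4:**
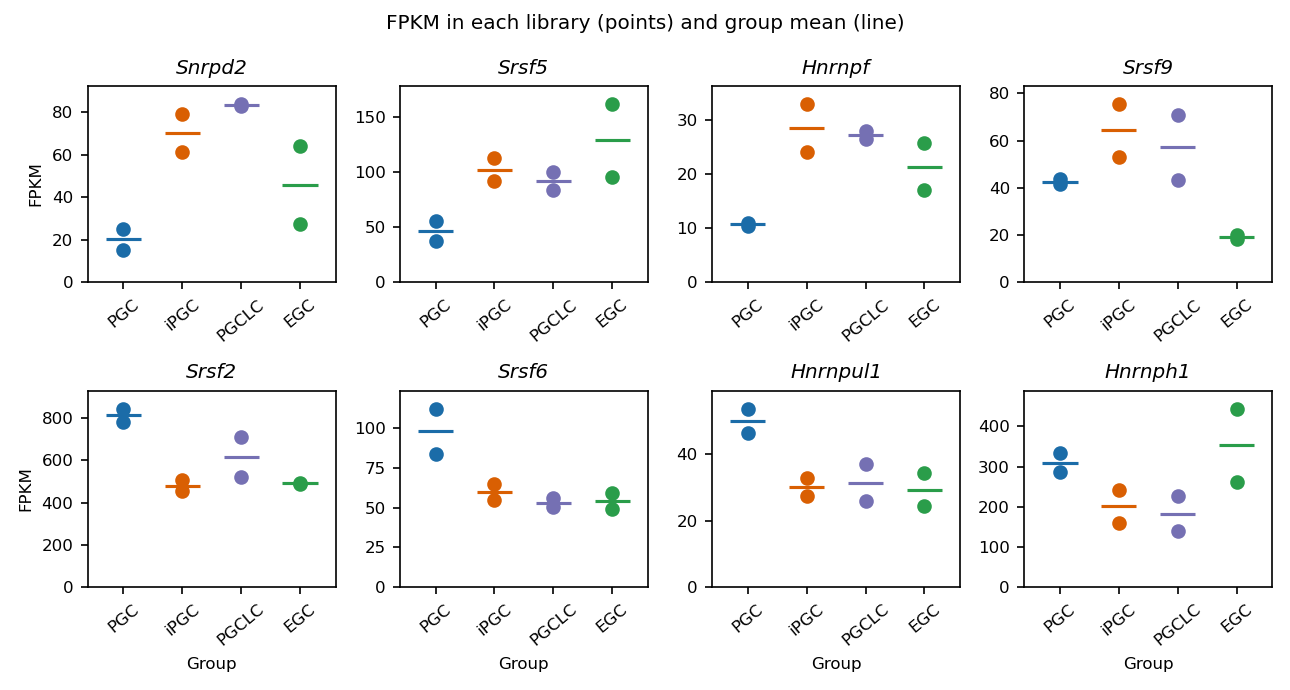
FPKM (y axis, from 0) in each library (points) and group mean (lines) of 8 genes in the 4 groups (x axis). Snrpd2, Srsf5 and Hnrnpf have both PGC points lowest, Srsf2, Srsf6 and Hnrnpul1 have them highest, Srsf9 has both EGC points lowest, and Hnrnph1 is lower in iPGCs and PGCLCs than in PGCs and EGCs.

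The iPGCs and PGCLCs were each compared with the PGCs they are made to resemble. In iPGCs 0 of 49 passed (background 0.794%) and 7 had an unadjusted p below 0.05 (background 19.5%). Snrpd2, Srsf12, Hnrnpf, Srsf5, Snrpc and Sf3b5 were higher (background 15.9%) and Srsf2 lower (background 3.54%). Of these, Srsf12 passed the filter only through iPGCs, so it could only be higher there. In PGCLCs 0 of 49 passed (background 1.06%) and 4 had an unadjusted p below 0.05 (background 19.5%). Snrpd2, Hnrnpf, Snrpc and Srsf5 were higher (background 15.7%) and 0 lower (background 3.76%). Snrpd2 was at 78.9 and 61.0 FPKM in iPGCs and 82.9 and 83.9 in PGCLCs. All 4 libraries lay above both PGC libraries (15.1 and 25.1). The difference was 1.78 ± 0.51 in iPGCs (adjusted p = 0.125; 1.43 without PGC library 1). In PGCLCs it was 2.04 ± 0.51 (adjusted p = 0.0876, the smallest of any of these genes; 1.69 without PGC library 1).

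Hnrnpf, a relative of Hnrnph1 that binds the same kind of G-rich RNA, was at 11.0 and 10.5 FPKM in PGCs, 33.0 and 24.2 in iPGCs and 28.1 and 26.6 in PGCLCs. The PGC libraries were close to each other and below all others. The difference was 1.32 ± 0.46 in iPGCs (adjusted p = 0.172) and 1.27 ± 0.46 in PGCLCs (adjusted p = 0.179), and 1.35 and 1.30 without PGC library 1. Opposite-strand genes cover 26.5% of its exonic bases. Srsf5 was at 112 and 91.4 FPKM in iPGCs and 83.8 and 99.8 in PGCLCs, above both PGC libraries. In PGCLCs its difference was 0.99 ± 0.42 (adjusted p = 0.249; 1.26 without PGC library 1). Snrpa, for a U1-specific protein that binds the U1 RNA, was at 33.9 and 9.60 in PGCs and 50.1 and 39.2 in iPGCs. Its difference of 1.24 ± 0.61 was 0.38 without PGC library 2 and 2.10 without PGC library 1, so the size depended on which PGC library was used. Snrpc was at 0.716 and 0.805 in PGCs, 5.33 and 3.61 in iPGCs and 4.98 and 3.37 in PGCLCs.

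Among genes below PGCs without overlap, and at a mean of 10 FPKM or more in PGCs, those described next were the 3 furthest down relative to all genes in each comparison. Srsf4, for a large SR protein, was at 55.2 and 34.8 FPKM in PGCs and 15.0 and 25.6 in iPGCs. Both iPGC libraries were lower, by -1.12 ± 0.58 (adjusted p = 0.327; -0.80 without PGC library 1), and an opposite-strand gene covers 43.0% of its exonic bases. Sf3a3, a further SF3A subunit, was at 29.2 and 48.9 in PGCs and 18.4 and 20.3 in iPGCs, with a difference of -0.93 ± 0.48 (-1.30 without PGC library 1 and -0.57 without PGC library 2). Hnrnpr was at 19.1 and 15.8 in iPGCs, below both PGC libraries, with a difference of -0.76 ± 0.71 (-0.92 without PGC library 1). In PGCLCs Srsf6, an SR protein gene with a role in exon inclusion, was at 50.4 and 56.1 against 112 and 83.7 in PGCs. Its difference was -0.86 ± 0.39 (adjusted p = 0.271; -0.65 without PGC library 1). Snrpa1, for a U2-specific protein, was at 107 and 69.5 in PGCs and 43.0 and 53.7 in PGCLCs, with a difference of -0.83 ± 0.46 (-0.52 without PGC library 1). Srsf11 was at 52.5 and 46.8 in PGCLCs, with a difference of -1.17 ± 0.56 that was -2.02 without PGC library 1 and -0.32 without PGC library 2. Without overlap, 16 genes (32.7%, background 39.4%) were higher and 14 (28.6%, background 13.1%) lower in iPGCs, and 8 (16.3%, background 33.5%) higher and 12 (24.5%, background 11.8%) lower in PGCLCs.

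The 2 kinds of in vitro germ cell, both from BVSC stem cells, were compared with each other. In PGCLCs against iPGCs 0 of 49 passed (background 0.018%) and 2 had an unadjusted p below 0.05 (background 4.68%). Srsf12 and Snrpb were lower in PGCLCs (background 2.69%) and 0 higher (background 1.99%). The direction of Srsf12 was fixed in advance, since it passed the filter only through iPGCs. The median absolute difference was 0.27, against 0.39 in genes at 10 FPKM or more, and the 49 genes had a median of -0.08 beside -0.00 for all genes. Snrpb, for the ring protein SmB, was at 27.6 and 44.5 FPKM in iPGCs and 9.88 and 19.4 in PGCLCs. The difference was -1.28 ± 0.52 (adjusted p = 1; -0.82 without PGCLC library 1). Snrpd3, for SmD3, was at 26.1 and 36.2 in iPGCs and 3.45 and 22.6 in PGCLCs, with a difference of -1.63 ± 0.78 (-0.43 without PGCLC library 1 and -2.84 without library 2). Its PGCLC libraries lay below both iPGC libraries but were further from each other than PGCLC library 2 was from iPGCs. Sf3a1 was at 34.7 and 43.0 in iPGCs and 16.2 and 18.7 in PGCLCs, a difference of -1.11 ± 0.57. Highest in PGCLCs without overlap, among genes at a mean of 10 FPKM or more there, were Snrpb2, for another U2-specific protein (0.65 ± 0.45), Sf3a3 (0.61 ± 0.48) and Srsf10, an SR protein gene linked to the heat shock response (0.43 ± 0.50, and 0.21 to 0.64 with 1 iPGC library left out). Without overlap, 6 genes (12.2%, background 17.3%) were higher and 13 (26.5%, background 19.6%) lower in PGCLCs.

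EGCs were then set against the in vitro germ cells. Against iPGCs 0 of 49 passed (background 0.117%) and 4 had an unadjusted p below 0.05 (background 10.3%). Srsf9, Srsf12, Sf3b5 and Snrpf were lower in EGCs (background 8.64%) and 0 higher (background 1.67%). Here too the filter fixed the direction of Srsf12. Against PGCLCs 0 of 49 passed (background 0.0993%) and 2 had an unadjusted p below 0.05 (background 13.9%), Srsf9 lower (background 11.1%) and Sf3a1 higher (background 2.73%). Srsf9, an SR protein gene close to Srsf1, was at 18.3 and 20.1 FPKM in EGCs, 43.7 and 41.5 in PGCs, 75.6 and 53.1 in iPGCs and 43.5 and 70.7 in PGCLCs. Both EGC lines were close together and below the other 6 libraries. The difference was -1.67 ± 0.43 against iPGCs (adjusted p = 0.293) and -1.48 ± 0.43 against PGCLCs (adjusted p = 0.219). Snrpf was at 3.13 and 8.88 in EGCs and 17.8 and 18.3 in iPGCs (-1.58 ± 0.69, and -0.95 without EGC line 4). Sf3b4, an SF3B subunit that binds RNA next to the branch site, was at 3.74 and 6.52 in EGCs and 10.6 and 13.6 in iPGCs (-1.13 ± 0.54). Both lay below iPGCs in each EGC line.

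Hnrnph1 was higher in both EGC lines than in the 4 in vitro libraries, by 0.79 ± 0.43 against iPGCs (adjusted p = 0.563) and 0.94 ± 0.43 against PGCLCs (adjusted p = 0.375). Without EGC line 4 the differences were 0.41 and 0.56, without iPGC library 2 the first was 0.49, and without PGCLC library 2 the second was 0.59. Sf3a1 was 1.36 ± 0.57 higher in EGCs than in PGCLCs (adjusted p = 0.342). Snrpb2 was at 34.8 and 23.8 in EGCs and 15.5 and 16.6 in iPGCs (0.81 ± 0.45), and Srsf4 at 25.6 and 38.7 against 15.0 and 25.6 (0.66 ± 0.58), where the nearest libraries nearly met. With 1 library left out the Srsf4 difference ran from 0.29 to 1.02. Snrpd1, for SmD1, was at 53.1 and 30.0 in EGCs and 24.5 and 28.2 in PGCLCs (0.58 ± 0.47, and 0.18 without EGC line 4 or 0.99 without line 7). Snrpd2 was lower in EGCs than in PGCLCs, by -0.98 ± 0.51, and this was -0.37 without EGC line 4 and -1.58 without line 7. Snrpg was lower by -0.84 ± 0.48, and this was -0.19 without PGCLC library 1 and -1.49 without PGCLC library 2. Medians of the 49 genes were -0.13 against iPGCs and -0.04 against PGCLCs, and those of all genes -0.40 and -0.38. Relative to all genes they were thus at 0.28 and 0.34, and relative to genes at 10 FPKM or more at 0.33 and 0.47. These 2 comparisons share the EGC libraries. Without overlap, 3 genes (6.12%, background 10.8%) were higher and 15 (30.6%, background 39.5%) lower against iPGCs, and 7 (14.3%, background 11.8%) higher and 10 (20.4%, background 34.2%) lower against PGCLCs.

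Across all 8 libraries, some genes separated the groups without overlap, in patterns chosen after the values were seen. Higher in all 6 iPGC, PGCLC and EGC libraries than in both PGC libraries were Srsf5, Hnrnpa1, Hnrnpf and Snrpd2, 4 of 49 (8.16%, background 15.2%). Lower were Srsf2, Srsf6 and Hnrnpul1, an hnRNP-like gene at 46.4 and 53.8 FPKM in PGCs and 24.4 to 37.0 elsewhere, 3 of 49 (6.12%, background 6.05%). Sf3b5, a small SF3B subunit, was at 76.1 and 91.1 FPKM in iPGCs and 82.4 and 71.9 in PGCLCs, above its PGC libraries (42.3 and 46.5) and EGC libraries (52.0 and 37.5). With Snrpc it made 2 of 49 that were higher in all iPGC and PGCLC libraries than in all others (4.08%, background 10.4%), and Hnrnph1 was the 1 that was lower (2.04%, background 1.07%). Both EGC lines lay below all other libraries in Sf3b2, Sf3b4, Srsf9 and Snrpg (8.16%, background 9.11%) and above them in 0 of 49 (background 3.08%). Apart from the share that Hnrnph1 alone made, these shares were near or below the background.

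Of 163 other splicing genes in 10 lists, 157 were tested. In EGCs against PGCs 0 were called higher and 1 lower, in PGCLCs against PGCs 1 higher and 0 lower, and in the other 4 comparisons 0 by limma. At an unadjusted p below 0.05, 12 were higher and 14 lower in EGCs against PGCs, 16 and 5 in iPGCs, and 17 and 6 in PGCLCs. These were 16.6%, 13.4% and 14.6% of the 157, against backgrounds of 17.2%, 19.5% and 19.5%. In PGCLCs against iPGCs it was 0 and 1, in EGCs against iPGCs 1 and 9, and in EGCs against PGCLCs 1 and 17, which were 0.637%, 6.37% and 11.5% against backgrounds of 4.68%, 10.3% and 13.9%. Prpf40b, a U1-associated factor that bridges to the branch site, was at 0.530 and 2.63 FPKM in PGCs, 9.65 and 13.0 in EGCs, 14.5 and 25.6 in iPGCs and 33.1 and 26.0 in PGCLCs. It rose by 3.69 ± 0.61 in PGCLCs against PGCs (limma adjusted p = 0.0420), and by 3.06 without PGC library 1. The call was lost with pseudocount 5, no filter, quantile or median scaling, the replicate block and a fit to the groups compared alone. It held with pseudocount 0.1, a filter at 5 FPKM and no trend. Cwc22, which brings the exon junction complex to the spliceosome, was at 45.9 and 104 in PGCs, 4.85 and 6.85 in EGCs, 36.3 and 19.9 in iPGCs and 26.3 and 23.4 in PGCLCs. It differed by -3.37 ± 0.55 in EGCs against PGCs (limma adjusted p = 0.0429), and by -3.96 without PGC library 1. This call was lost with pseudocount 5, no filter, no trend and a fit to the groups compared alone. It held with pseudocount 0.1, a filter at 5 FPKM and quantile or median scaling. The remaining lists, such as the U4/U6.U5 tri-snRNP, the Lsm ring, the minor spliceosome and the SMN complex that assembles snRNPs, had 0 calls in all 6 comparisons. Relative to all genes the medians of the 10 lists ran from -0.67 to 0.01 in EGCs, -0.71 to 0.07 in iPGCs and -0.87 to 0.15 in PGCLCs against PGCs, with 8, 9 and 9 lists below 0. The lowest were the minor spliceosome list (8 genes) in EGCs and PGCLCs and the U1 list (11 genes) in iPGCs. Without PGC library 1 the 10 medians ran from -0.54 to 0.35, -0.79 to 0.13 and -0.62 to 0.15, and the minor spliceosome list was at -0.41, -0.55 and -0.39.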

How the data were processed

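The 50 genes, the other splicing lists and the markers were chosen with earlier results of these data known. Per the labels' protocols, total RNA of 4 groups of 2 was amplified (Ovation RNA-Seq System V2) with spike-in RNA, and the 8 libraries were read from a single end over 50 bases. The deposited table holds 1 column of FPKM per library, made by the authors. The submitters' processing notes name TopHat2, Cufflinks and GRCm38 (mm10). Versions, annotation and strand use are not given in the sources used. Of 20171 rows, 18 repeats of an identifier were dropped, none of a gene described here.

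FPKM holds no counts, so log2(FPKM + 1) was tested with limma 3.58.1 in R 4.3.3 (trend and robust variance) over the 11083 genes that reached 1 FPKM in at least 2 libraries. A difference on this scale understates the change of low genes. The 8 libraries shared 1 estimate of the spread (4 residual degrees of freedom, median prior 4.53). P-values are two-sided with Benjamini-Hochberg adjustment in each of 6 comparisons, threshold 0.05. The step was tested on simulated data. Genes named with values are those past the threshold, the 5 highest, those listed at 0 in a group and at 1 FPKM or more in another, and in each comparison the 3 furthest each way relative to all genes, without overlap and where the higher group averaged 10 FPKM or more. Values of other genes were added after they were seen. Depth was read from the steps between low values. Coordinates and transcript types are from GENCODE M21, pseudogene matches from BLAST+ 2.17.0 and upstream sequences from RefSeq. Other settings were pseudocounts of 0.1 and 5, no filter or 5 FPKM, quantile or median scaling, no trend, a fit to the groups compared alone, each library left out, and a replicate block.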

Additional observations from a re-analysis of the deposited data

How the results depend on the processing

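Under alternative runs that kept 2 libraries a group, none of the 49 genes was called. This held in all 6 comparisons and the F test. The smallest limma adjusted p of these runs was 0.0777 (PGCLCs against PGCs, filter at 5 FPKM). Of 594 refitted values of genes named in a comparison, 0 changed sign. Those genes were picked for groups that did not overlap, so only quantile or median scaling could have changed a sign. Leaving out 1 library moved 17 of these 36 differences by over 1.5 times, median scaling 14 and quantile scaling 6. The list medians without PGC library 1 were added after seeing the data. Deviations of same-numbered libraries were little correlated, at 0.0071, -0.029 and 0.058 over 11083 genes. With 1 pair of libraries a group, this cannot show whether same-numbered libraries shared a batch. A fit with the replicate block called 0 of 49 in iPGCs and PGCLCs against PGCs and against each other. It was not run for the F test or for EGC lines 4 and 7, which share no number with the other groups. With 2 libraries a group, only differences of about 2.44 or more were called in any gene against PGCs. In the comparisons without PGCs only those of about 3.76 or more were called. The median of the 49 genes relative to all genes moved as follows, and the cause was not tested. EGCs against PGCs: -0.23 with pseudocount 0.1, -0.072 with no filter, 0.11 with quantile scaling, 0.057 relative to genes at 10 FPKM or more (a reference added after seeing the data), and -0.30 to -0.14 with a library left out. iPGCs against PGCs: -0.79 with pseudocount 0.1, -0.28 with pseudocount 5, -0.31 with no filter, -0.22 with quantile scaling, -0.40 relative to genes at 10 FPKM or more, and -0.64 to -0.40. PGCLCs against PGCs: -0.70, -0.29, -0.24, -0.67 with a filter at 5 FPKM, -0.33 with quantile scaling, and -0.68 to -0.47. PGCLCs against iPGCs: -0.21 with quantile scaling, -0.15 relative to genes at 10 FPKM or more, and -0.26 to 0.051. EGCs against iPGCs: 0.40, 0.13 and 0.095 with pseudocounts 0.1 and 5 and no filter, and 0.22 to 0.37. EGCs against PGCLCs: 0.45, 0.18 and 0.11 likewise, 0.45 with a filter at 5 FPKM, 0.44 with quantile scaling, 0.47 relative to genes at 10 FPKM or more, and 0.28 to 0.34.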
